A study of Drosophila melanogaster with 4 samples.

Results

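Homothorax binding at its own gene was described from the peaks that lie in a window of 190 kb on chromosome arm 3R. The window, the hth locus with its upstream flank, was set by position, with earlier results of these data known, so its ranks below are not those of a locus picked blind. It holds every listed peak whose midpoint falls between 6320000 and 6510000 of FlyBase release 5. It contained 49 peaks, out of 1537 on 3R and 6207 in the authors' list. The list carries no gene names, so the link between these positions and hth rests on the coordinates of the window. No gene model of release 5 was used, and no peak is assigned here to an exon, an intron, a UTR or the promoter of hth.

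The study was a chromatin immunoprecipitation experiment followed by sequencing (ChIP-seq) on whole Drosophila melanogaster embryos, labelled 0 to 8 h. It comprised 2 libraries of chromatin precipitated with a crude guinea pig serum against the full-length, His-tagged Homothorax protein, and 2 libraries of input DNA, the unprecipitated chromatin used as control. Both groups came from 1 strain, labelled Y cn bw sp, of unknown sex and with no treatment in the labels. The genotype label lists the pigmentation markers y[1], cn[1], bw[1] and sp[1], further the alleles CG33964[R4.2], lab[R4.2] and oc[R3.2], and lastly Rh6[1], GstD5[1], MstProx[1], LysC[1], Gr22d[1] and Gr22b[1], with no allele of hth among them. Whole embryos mix all cell types of the stage, so a peak cannot be placed in a tissue, and a site bound in few cells cannot be told apart from one bound weakly in many. The protocol text that the libraries share names a laying window of 8 to 16 h, which differs from the stage label.

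Only the authors' peak list was analysed, with 1 score per peak for the whole series. The sources used here do not say what the score measures, so it serves to rank and sort peaks within this list. The read depth behind the peaks is unknown, and since the list gives no values per library, a replicate error cannot be given. For these reasons no test was run, and all comparisons below are descriptions of this 1 list. Intervals on shares are exact binomial (Clopper-Pearson) 95% intervals, which cover counting error only and treat peaks as independent, which neighbouring peaks are not.

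The gene hth (CG17117) encodes a homeodomain protein of the TALE class, the fly counterpart of the vertebrate Meis proteins. Homothorax pairs with Extradenticle, the fly Pbx protein, brings it into the nucleus, and the pair binds DNA alone or next to Hox proteins, which lends Hox proteins specificity along the body axis. The gene is also known to make a form that lacks the homeodomain and keeps the domain that binds Extradenticle. In gene order on release 6, the only annotation at hand, the nearest protein-coding genes are Cyp12e1, a cytochrome P450 gene, on one side and CG6465 on the other. The microRNA gene mir-4944 lies inside hth, the antisense RNA gene asRNA:CR44018 overlaps one end of it, and 3 long noncoding RNA genes lie between hth and Cyp12e1. Which of these fall inside the release 5 window was not determined.

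Homothorax peaks covered 66.3 kb of the hth locus, or 34.9% of the window, and most of this cover lay on the side with the higher coordinates. A block of 60.5 kb, at 3R:6425255-6485758, held 24 of the 49 peaks and was 77.6% inside peaks. It contained 6 peaks wider than 4 kb, a width passed by 1.21% of the other peaks of 3R. All 6 scored above 100, as did 4.91% of the other peaks of the arm, of any width. Their median score of 165 was close to the 167 of the other 18 peaks of 3R over 4 kb. Outside this block the window carried 25 narrower peaks, of which 1, at 3R:6396073-6398030, scored above 100.

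**Figure D1:**
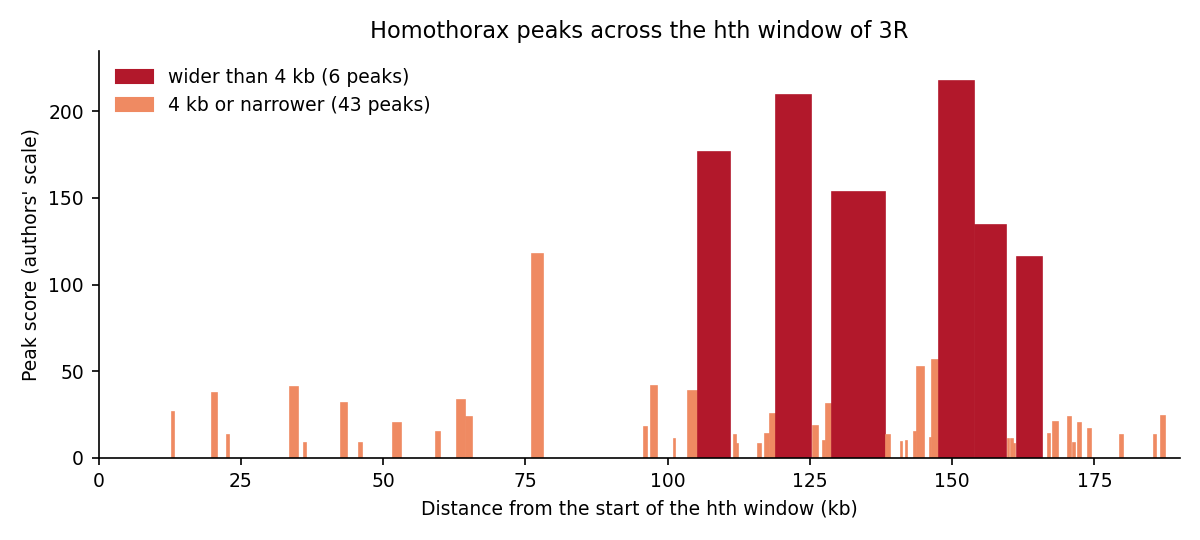
Peaks of the hth window drawn to scale. The horizontal axis gives the distance from the window start in kb and the height of each bar is the authors' score; bar width is peak width. The 6 peaks over 4 kb (dark red) score between 115.73 and 217.75 and lie in a block of 60.5 kb, with narrower peaks between most of them. Before the block, 1 narrower peak, 77.1 kb from the window start, reaches 117.43.

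The broad peaks of the locus were described first. They were singled out by width after their values were seen. In order along the arm, the first, at 3R:6425255-6430966, was 5.71 kb wide with a score of 176.67. The next, at 3R:6439077-6445255, was 6.18 kb wide and scored 209.37, the second highest value of the window. The widest, at 3R:6448802-6458260, measured 9.46 kb with a score of 153.19. No peak on 3R was wider than this one, although 39 peaks of the arm scored higher.

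The remaining 3 broad peaks lay close together. The highest score of the locus, 217.75, belonged to the peak at 3R:6467704-6473787, which was 6.08 kb wide. It ranked ninth on 3R and 29th in the whole list by score. After a gap of 208 bp followed the peak at 3R:6473996-6479547, 5.55 kb wide with a score of 134.63. The last, at 3R:6481373-6485758, was the narrowest of the broad peaks at 4.39 kb and had their lowest score, 115.73.

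Together the 6 broad peaks held 37.4 kb, or 56.3% of all bases inside peaks at the locus. The gaps between them were 8.11, 3.55, 9.44, 0.208 and 1.83 kb long, in order along the arm. All but the gap of 208 bp held narrow peaks, with 5, 3, 7 and 3 in turn. These 18 narrow peaks inside the block scored 7.93 to 56.45, with a median of 12.2, and none was wider than 1.12 kb. The block thus held broad, high-scoring peaks and, between most of them, several small ones with mostly low scores.

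Of the 43 members of 4 kb or less, 5 (11.6%) scored 40 or more, against 16.6% of the other peaks of 3R of that size. With the broad peaks they make up the 11 members at that level, which 17.6% of the other peaks of 3R of any width reached. The peak at 3R:6396073-6398030 was the sixth highest of the window, at 117.43, although only 1.96 kb wide. It stood alone, 10.4 kb after the peak before it and 17.9 kb ahead of the next. The other 4 scored 56.45 at 3R:6466455-6467424, 52.16 at 3R:6463904-6465026, 41.65 at 3R:6417026-6418126 and 40.77 at 3R:6353589-6355066. The first of these lay 279 bp before the top-scoring broad peak.

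Low-scoring members occurred before, inside and after the block of broad peaks, most of them inside it. Scores under 10 were held by 9 members (18.4%), a share near the 16.2% of the other peaks of 3R. The lowest 3 were 7.93 at 3R:6480832-6481124, 8.24 at 3R:6432148-6432419 and 8.26 at 3R:6435857-6436358, and all 3 lay inside the block of broad peaks. A width of 201 bp, the smallest in the list, was found for 2 members (4.08%) and 1.75% of the other peaks of 3R. Some narrow peaks adjoined broad ones, with 10 of the 43 less than 1 kb from a broad peak and with scores from 7.93 to 56.45.

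The block of broad peaks divides the window into 3 stretches. The first 105 kb of the window, before the broad peaks, held 16 peaks, or 1.52 per 10 kb, and 14.2% of it was inside peaks. Its scores ran from 8.33 to 117.43 with a median of 24.96. The block of broad peaks held 3.97 per 10 kb, with a median score of 14.3 despite its high maximum. The last 24.2 kb held 9 peaks, or 3.71 per 10 kb, but these were narrow, at most 0.823 kb, and covered 18.4% of it. Their scores reached no more than 23.94. The number of peaks per 10 kb in the last stretch was therefore close to that of the block, while its cover was near that of the first stretch. The bounds between these stretches were set on the broad peaks and not by an annotation.

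**Figure D2:**
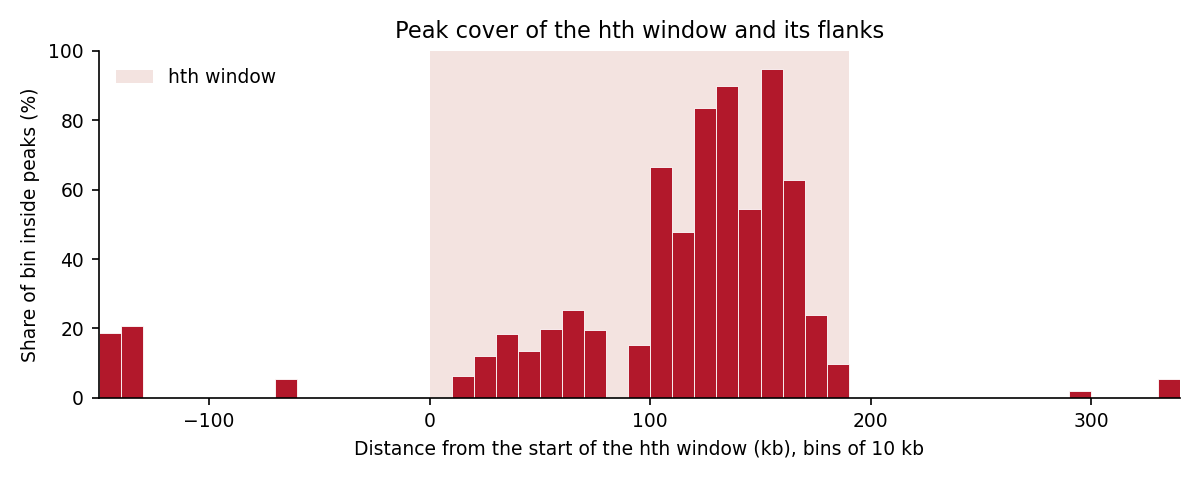
Share of each 10 kb bin that lies inside peaks, against the distance from the window start in kb. Shading marks the hth window. Cover stays at or below 25.4% over the first 100 kb, reaches 94.9% between 150 and 160 kb, and is 0 over the bins next to both ends of the window.

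In bins of 10 kb from the window start, 6 of 19 were covered over 50%, and all 6 lay between 100 and 170 kb. Cover was highest at 94.9% in the bin from 150 to 160 kb, followed by 89.7% from 130 to 140 kb and 83.4% from 120 to 130 kb. By number of peak centres the order was different. The bin from 140 to 150 kb held 6 centres at 54.4% cover, and 3 bins, starting at 110, 160 and 170 kb, held 5 each. The bin from 170 to 180 kb, with 5 centres, was covered by 24.0%. The 3 most covered bins held 2 to 4 centres each. No centre fell in the first bin or in the bin from 80 to 90 kb.

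Peaks were also grouped into runs, in which consecutive peaks are separated by at most 5 kb. The window held 9 runs, and the longest contained 35 of the 49 peaks in 84.0 kb. Among the 476 runs of 3R none was longer and none held more bases inside peaks, while 1 had more peaks. With 71.4% of the members, it held 9 of the 11 that scored 40 or more and 7 of the 9 that scored under 10. Its median score was 16.4, and that of the 14 peaks outside it was 23.7. The length of the run depended on weak peaks: among the 50% of listed peaks with the highest scores, the run of the window with the most peaks held 8 in 28.7 kb, and 6 other runs of 3R were longer. With gaps of at most 2 kb, the longest run held 27 peaks in 58.6 kb, and no run of 3R was longer. Of the other 8 runs, 3 were single peaks and 5 had 2 or 3 peaks. The 5 shortest gaps between members were 44, 44, 49, 51 and 70 bp, and 3 of these lay at the edge of a broad peak. The median gap between members was 844 bp, against 1404 bp for the other gaps of 3R.

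The locus was set off from its surroundings on both sides. The first member, at 3R:6332822-6333316 with a score of 26.53, was preceded by 75.6 kb without a peak, beyond which lay a peak at 3R:6256648-6257183 with a score of 11.94. The last member, at 3R:6506738-6507407 with a score of 23.94, was followed by 112 kb without a peak, up to a peak at 3R:6619403-6619611 with a score of 9.13. Of the 1536 gaps on 3R, 97 were longer than the gap before the locus and 61 were longer than the gap after it. All members therefore lay in 175 kb, and the window could be extended by 63.1 kb at its start or by 109.5 kb at its end before another peak centre entered. Whether reads can be mapped in the flanks was not examined.

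The window was then compared with windows of equal length on the same arm. From the hth window outwards, 3R was divided into 146 windows of 190 kb laid end to end. The other 145 windows held a median of 6 peaks and a mean of 10.2, and 17 of them held none. With 49 peaks the hth window ranked 5, and 4 of the other windows (2.76%) had at least as many. By covered share it ranked 2, at 34.9% against a median of 1.91%, and 1 of the other windows (0.69%) reached its value. These ranks favour hth, since the division frames its locus whole and can split other groups of peaks. The highest values in the other windows were 75 peaks and 42.3% cover. With other windows placed at every 10 kb step they were 91 peaks and 50.3%. The rank by cover depended on the broad peaks. With peaks over 4 kb left out of every window, the hth window was 15.2% covered and ranked 8, while its 43 peaks ranked 6 by number. This limit was set after the values were seen, and it favours a fall in rank. It takes out all 6 members over 2 kb, whereas the window at 2.71 to 2.90 Mb loses 3 of its 11 such peaks.

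**Figure D3:**
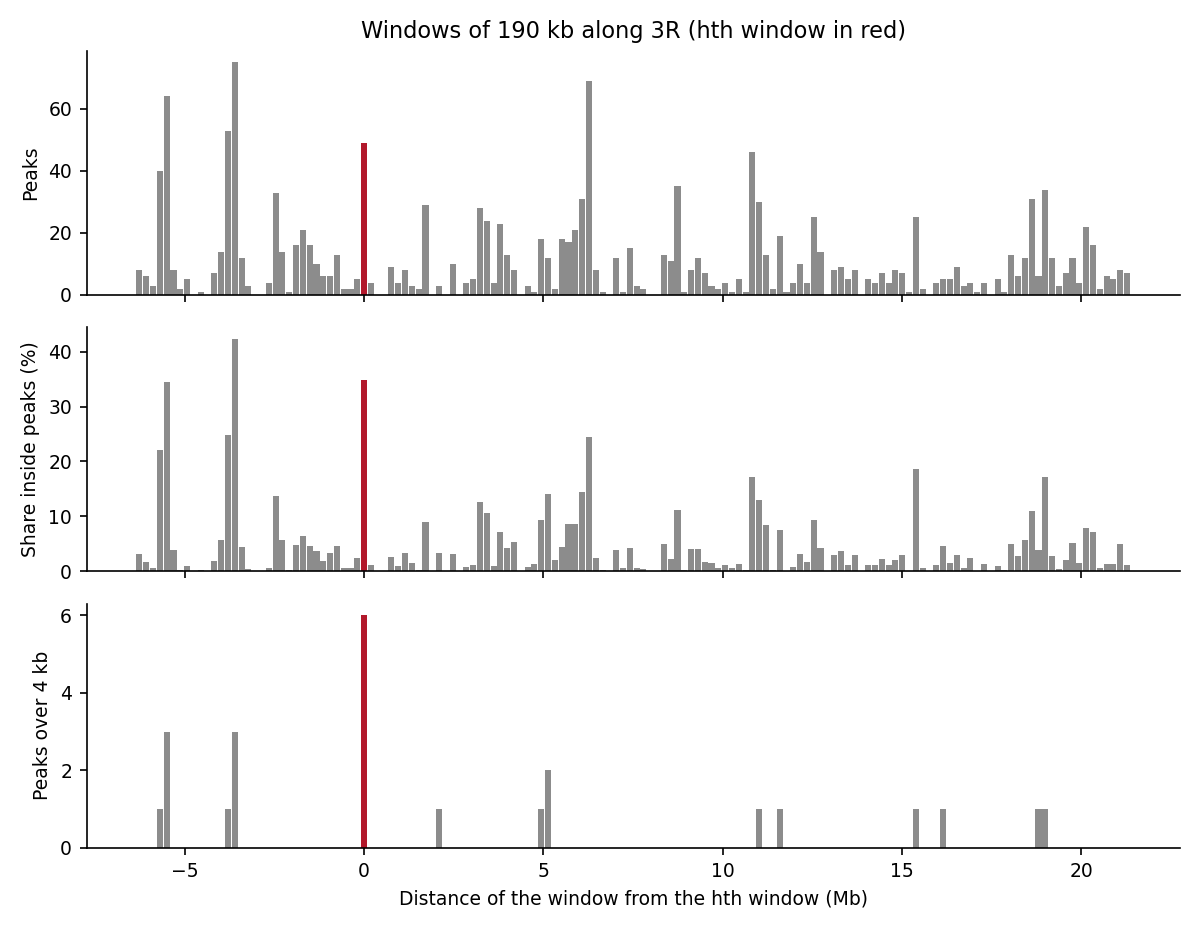
Windows of 190 kb along 3R, placed by their distance from the hth window in Mb (hth window in red). From top to bottom the panels give the number of peaks, the share of the window inside peaks and the number of peaks over 4 kb. The hth window ranks 5 by peaks (49), 2 by cover (34.9%) and 1 by peaks over 4 kb (6). The limit of 4 kb was set after the values were seen, and by peaks over 2 kb (6, not drawn) the window ranks 4.

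The windows with more peaks were at 2.71 to 2.90 Mb with 75, at 12.59 to 12.78 Mb with 69, at 0.81 to 1.00 Mb with 64 and at 2.52 to 2.71 Mb with 53. The first of these was also the one with more cover, at 42.3%. The window at 0.81 to 1.00 Mb came closest to hth by cover, at 34.5%, from 15 more peaks. The window at 12.59 to 12.78 Mb held 20 more peaks than hth but was 24.5% covered and had no peak over 4 kb. Next below hth by number were the windows at 17.15 to 17.34 Mb with 46 peaks and 17.1% cover, and at 0.62 to 0.81 Mb with 40 peaks and 22.1% cover.

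The windows named so far differed in how their cover was made up. At hth, 56.3% of the bases inside peaks belonged to peaks over 4 kb. The share was 25.9% at 0.81 to 1.00 Mb, 18.9% at 2.71 to 2.90 Mb, 16.5% at 0.62 to 0.81 Mb and 9.10% at 2.52 to 2.71 Mb, and no such peak was found at 12.59 to 12.78 Mb or 17.15 to 17.34 Mb. Among all windows of 3R, 3 with fewer peaks had a higher share than hth. These were the windows at 8.41 to 8.60 Mb with 88.4% of 6.39 kb, at 25.13 to 25.32 Mb with 67.9% of 7.37 kb and at 11.45 to 11.64 Mb with 60.1% of 26.7 kb inside peaks. No other window of 3R held more than 3 of these broad peaks, and 132 held none. At a limit of 2 kb the hth window, with 6 peaks, ranked 4. Above it were the windows at 2.71 to 2.90 Mb with 11, at 21.71 to 21.90 Mb with 9 and at 0.81 to 1.00 Mb with 7. Windows also differed in their neighbours. Directly before and after hth lay windows with 5 and 4 peaks, near the median of 6 over the other windows. Each of the 6 windows listed above for their number of peaks adjoined a window with at least 30 peaks on one side. Those at 0.62 to 0.81 and 0.81 to 1.00 Mb adjoin each other, as do those at 2.52 to 2.71 and 2.71 to 2.90 Mb. The hth window was placed around its locus, while the ends of the other windows could split a group of peaks. The contrast in neighbours therefore depends on this placement. Sparse neighbours were not particular to hth, however. The window at 8.03 to 8.22 Mb, with 29 peaks, lay between windows with 2 and 0. That at 21.71 to 21.90 Mb, with 25 peaks, lay between windows with 1 and 2.

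The members were next compared one measure at a time with the other peaks of 3R, and the clearest contrast was in the number of very wide peaks. The share wider than 4 kb was 12.2% of members (6 of 49, interval 4.63 to 24.8%) and 1.21% of the other 1488 peaks. The same 6 members were wider than 2 kb, against 7.26% of the others. A score of 100 or more was reached by 14.3% of members (7 of 49, interval 5.94 to 27.2%) and 4.91% of the others. At a score of 40 or more the shares were 22.4% (11 of 49, interval 11.8 to 36.6%) and 17.6%, and at 20 or more they were 46.9% (23 of 49, interval 32.5 to 61.7%) and 38.6%. The value of the other peaks lay below the interval of the members for widths over 4 kb by a wide margin and for scores of 100 or more by about 1 percentage point, and inside it for the other 3 measures. The width limit of 4 kb was set after the values were seen, so these intervals describe the list and test nothing.

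**Figure D4:**
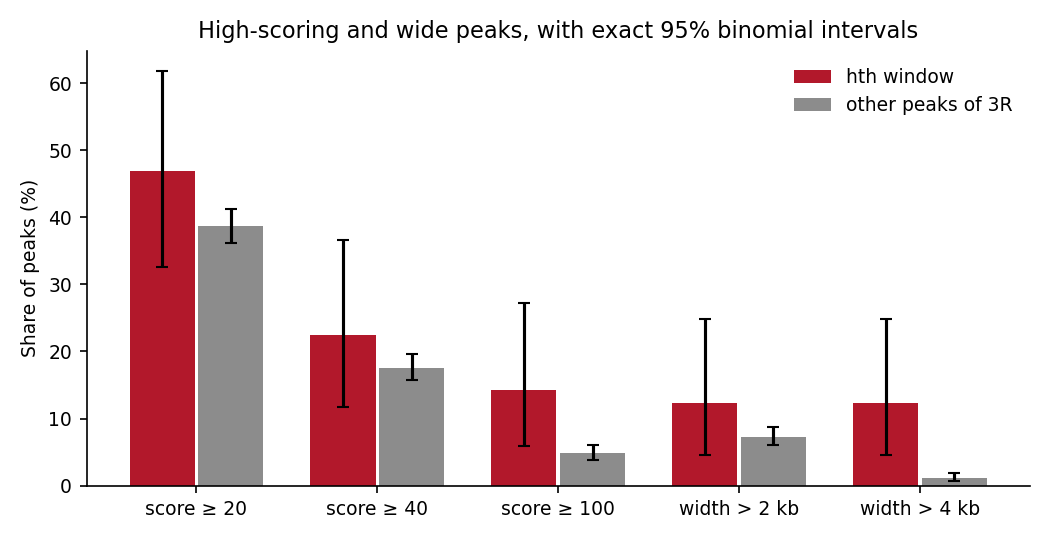
Share of peaks past each score or width limit in the hth window (red, 49 peaks) and among the other 1488 peaks of 3R (grey). Error bars are exact 95% binomial intervals, counting error only. The intervals stand apart for widths over 4 kb, 12.2% against 1.21%, and overlap for the other limits.

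Set against the arm as a whole, the locus made up 0.685% of the windows, 3.19% of the peaks and 5.41% of the bases inside peaks on 3R. It held 8.75% of the 80 peaks with a score of 100 or more and 25% of the 24 peaks over 4 kb, a limit set after the values were seen. At lower limits it held 3.85% of the peaks with a score of 20 or more, 4.03% at 40 or more and 5.26% of those over 2 kb. The middle of the distribution differed less. The median score was 18.4 among members, with an interquartile range of 11.3 to 37.5, and 16.2 among the other peaks of 3R, with a range of 11.0 to 29.7. The median width was 651 bp, against 481 bp. For the 43 members of 4 kb or less the median score was 15.0 and the median width 501 bp, against 16.1 and 474 bp for the other 1470 peaks of that size.

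The broad members had scores within the range of broad peaks elsewhere on the arm. Their scores had a median of 165 and those of the other 18 broad peaks a median of 167, with a range of 50.2 to 325.39. Median widths were 5.90 and 4.93 kb. Wider members tended to score higher, with a Spearman rho of 0.87 over the 49 peaks, and rho was 0.83 over the other 1488 peaks of 3R. Both are descriptions, since peaks of 1 list share their libraries and their caller. The other peak of the arm that was close to the widest member in size, at 3R:11467925-11477173, was 9.25 kb wide and scored 195.18.

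**Figure D5:**
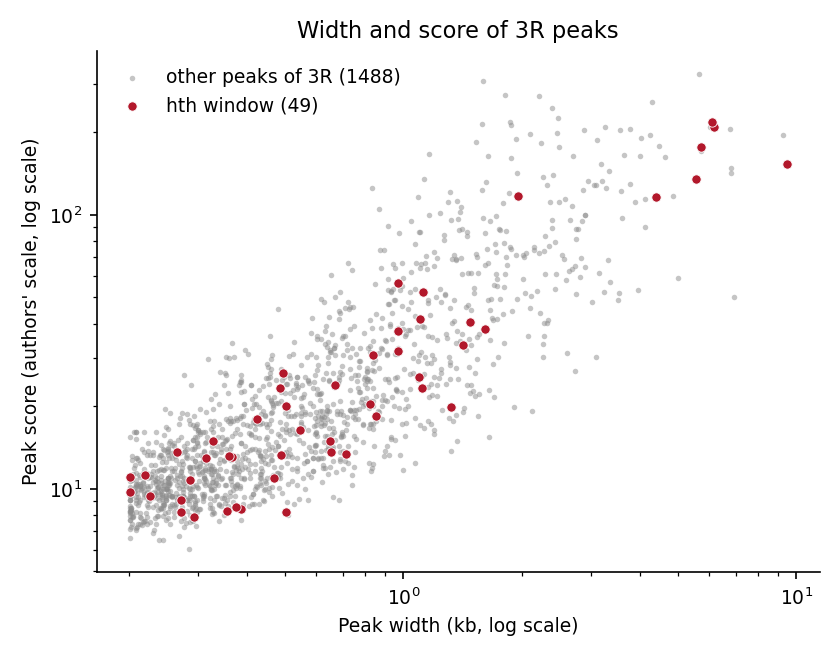
Peak width in kb against the authors' score for the 49 peaks of the hth window (red) and the other 1488 peaks of 3R (grey), both axes logarithmic. Members follow the trend of the arm, with 6 broad ones at the upper right and 1 narrower one, 1.96 kb wide, above 100.

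The block of broad peaks was also set beside stretches of the same length anywhere on the arm. Among stretches of 60.5 kb that started at a peak and did not overlap it, the most covered lay at 3R:2670092-2730595 and was 67.0% inside peaks, compared with 77.6% for the block. Since the block was delimited by its own broad peaks, its value is favoured by the choice of its ends.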

How the data were processed

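The authors deposited 1 peak list for the series, on FlyBase release 5 and written by MACS per the file headers. The submitters' processing notes name BDGP5, CASAVA (1.7.0.2 and 1.7.0.3), BWA and MACS2. The sources used here do not give the unit of the deposited score, the calling threshold, excluded regions or whether the replicates were pooled. Start and end positions were used as deposited. Peaks were assigned to windows by midpoint, cover is the summed width of the assigned peaks, and windows were laid end to end from the hth window over the 3R extent from position 1 to the end of the last peak, whole windows only. Calculations used Python 3.11.15, numpy 2.4.6, pandas 2.3.3 and scipy 1.17.1, with plots in matplotlib 3.10.9, and the window functions were tested on simulated data. The release 6 gene table served for names and gene order only. Named peaks were the 10 highest, 5 widest, 3 lowest, first and last members and the nearest outside, with windows above or closest to hth by number. The locus, its window and these lists were chosen with earlier results of these data known. Limits at 4 kb, the block of broad peaks and the stretches it defines were set after values were seen, as were other peaks named. Alternatives are given in the closing section.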

Additional observations from a re-analysis of the deposited data

How the results depend on the processing

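Of 31 alternatives, 19 stayed close to the reported value (within 1.5 times, or inside its binomial interval). Some of these were fixed in advance. No peak crosses an end of the window, so assignment by overlap had to return 49 peaks and 34.9% cover. Leaving out the peaks over 4 kb had to leave 43. The peak number fell from 49 to 26 when the 50% of peaks with the lowest scores were dropped and to 23 after merging of peaks closer than 1 kb, both by construction. The rank by number was 2 after merging, 3 with the other windows shifted by 95 kb and 68 with other windows at every 10 kb step. At these steps 2.52% of the other 2734 windows had at least as many peaks. The hth window itself kept its place in both cases, and windows that overlapped it were left out. The rank by cover was 3 after merging and 2 with the other windows shifted. After merging the window was 39.7% covered, a value that counts the closed gaps as cover. At the 10 kb steps it was 21, with 0.732% of the other windows at or above it. Overlapping steps count a dense region many times. Without peaks over 4 kb, an alternative added after the data were seen, the covered share was 15.2% and ranked 8, and the share with a score of 40 or more was 11.6%. This share was 46.9% at a limit of 20, as the lower limit must raise it. The number of runs was 15 with gaps of at most 2 kb and 4 with gaps of at most 10 kb. The longest run had 27 peaks in 58.6 kb and 37 in 91.5 kb under these limits, and 8 in 28.7 kb without the lower-scoring 50%. No paired analysis was possible because each peak has 1 value for all libraries, and leaving out a replicate was not possible either. The planned comparisons with exons, introns and recognition words were not run, since no release 5 genome or annotation was used here.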
